A study of Bos taurus with 12 samples.

Results

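A set of 5 miRNAs that are widely read as signs of blood and vessel material were followed through granulosa cells of bovine follicles: bta-miR-451, bta-miR-486 and bta-miR-144, which mark red cells, and the pair of arms bta-miR-126-3p and bta-miR-126-5p, which mark endothelium. They were chosen by name from the 755 mature miRNA names counted, with earlier results of these data known. Granulosa cells had been sedimented from the follicular fluid of Simmental heifers, all of them synchronized with the prostaglandin F2α analogue cloprostenol and the GnRH analogue buserelin, and small RNA was sequenced from 12 samples. The 4 groups, with 3 replicate libraries each, were subordinate follicles (SF) and dominant follicles (DF), each collected on either day 3 or day 7 of the cycle. The paper classed follicles by diameter, with larger limits for both SF and DF at day 7 than at day 3. Differences between the days, and the interaction of follicle and day, therefore cannot be told apart from these size limits. Different heifers were slaughtered on the 2 days, the fluid was pooled by follicle size before the cells were spun down, and no step that lyses red cells or selects granulosa cells is described. The labels call the libraries biological replicates without naming the animals behind them, so p-values measure the spread between these samples only.

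Red cells keep a small set of miRNAs at very high levels after they have lost their nucleus. miR-451 and miR-144 are made from one transcript that the erythroid factor GATA1 drives, and miR-451 is unusual in being matured by Argonaute 2 rather than by Dicer, while miR-486 lies within ankyrin 1 (ANK1), a red cell membrane protein gene, and is also made in muscle. miR-126 lies within EGFL7, a gene of endothelial cells, and both arms of its hairpin are used there in vessel growth and integrity. In an antral follicle the vessels run in the theca, and the basal lamina keeps them out of the granulosa layer until ovulation. In the RefSeq table of bovine genes (assembly ARS-UCD2.0, used for names and neighbours only), MIR451 and MIR144 were each other's nearest gene, MIR486 lay inside ANK1 and MIR126 inside EGFL7.

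The libraries held 160418 to 405129 reads on known miRNAs, with a median of 297448.5 and the lowest total in DF day 7 replicate 2. A level of 3 reads corresponded to 0.000741% to 0.00187% of a library. Values below are normalized counts, which are reads divided by the size factor of the library (median of ratios over all 12 libraries), unless reads are named. A miRNA was called differentially expressed when edgeR's quasi-likelihood test gave a log2 fold change of 1 or more in size with p no higher than 0.05 and a false discovery rate within 10%, adjusted over every miRNA tested in the comparison. Since whole samples were sequenced, fewer cells of a type and less RNA per cell cannot be told apart. The labelled cell type could not be checked with a granulosa-defining miRNA, as no such list was set.

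Reads of 4 of the 5 miRNAs were found in all 12 libraries. bta-miR-486 was the most read, with 9891 reads in all, 199 to 1614 per library, which made 0.291% of all reads and rank 43 of the 755 names. bta-miR-451 had 1420 reads (33 to 227 per library, rank 107). The miR-126 arms were lower, with 713 reads of bta-miR-126-3p (26 to 107 per library, rank 127) and 798 of bta-miR-126-5p (37 to 111 per library, rank 125). bta-miR-144 had 11 reads altogether, at most 3 in a library, and was seen in 6 of the 12 libraries. Each read spans a whole mature miRNA, so length does not enter these ranks, but adapters join different miRNAs with unequal efficiency, and the ranks are of reads rather than of molecules. From the lowest to the highest library, the normalized count differed 8.32-fold for bta-miR-486, 6.74-fold for bta-miR-451, 4.26-fold for bta-miR-126-3p and 3.11-fold for bta-miR-126-5p.

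**Figure D1:**
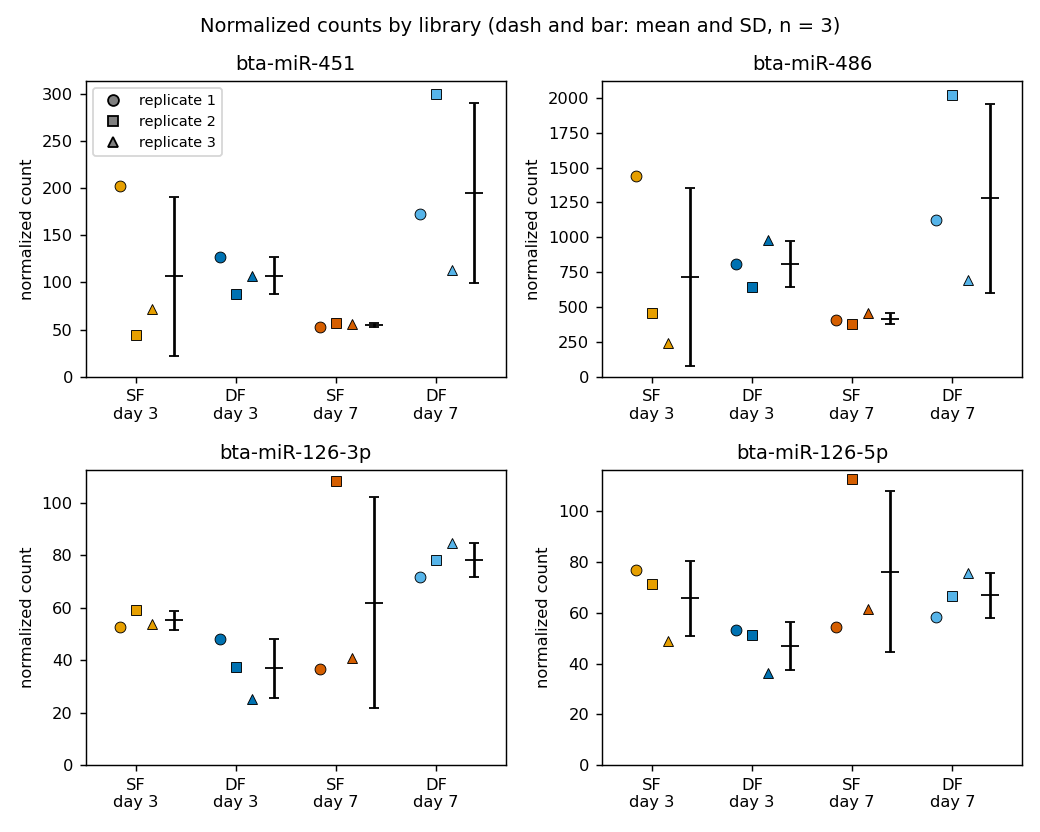
Normalized counts (reads divided by the library's size factor) of bta-miR-451, bta-miR-486, bta-miR-126-3p and bta-miR-126-5p in each of the 12 libraries, with symbols for replicates and a dash and bar for the group mean ± SD (n = 3). The 3 SF libraries at day 7 lie close together for bta-miR-451 (52.6 to 56.6), while SF at day 3 and DF at day 7 spread widely for both bta-miR-451 and bta-miR-486.

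Among the red cell miRNAs, bta-miR-451 was counted at 202, 44.4 and 72.1 in replicates 1, 2 and 3 of SF at day 3, and at 127, 88.0 and 107 in DF at day 3. At day 7 it was counted at 52.6, 56.6 and 55.5 in SF and at 172, 299 and 113 in DF. The day 3 means were 106 ± 84.3 (SD, n = 3) for SF and 107 ± 19.5 for DF, and the day 7 means were 54.9 ± 2.11 for SF and 195 ± 95.1 for DF. SF at day 7 was therefore the most even group as well as the group with the lowest mean, and 1 SF library at day 3 reached the range of DF at day 7. The paper classed many more follicles as SF than as DF on both days, with the fewest in DF at day 7. As fluid was pooled by follicle size, libraries may hold unequal numbers of follicles. The part of pooling in the spread within groups was not tested.

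bta-miR-486 had the same shape at a higher level. It was counted at 1439, 456 and 243 in SF at day 3 (713 ± 638) and at 806, 647 and 978 in DF at day 3 (810 ± 166). At day 7 the counts were 410, 381 and 459 in SF (417 ± 39.3) and 1122, 2023 and 695 in DF (1280 ± 678). In order of their means the groups ran SF day 7, SF day 3, DF day 3 and DF day 7 for both miRNAs, and the libraries of neighbouring groups in that order overlapped for each.

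The spread within groups exceeded counting error in some groups and not in others. Between the 3 SF libraries at day 7, the chi-square per degree of freedom was 0.213 for bta-miR-451 and 1.97 for bta-miR-486, where counting error alone gives about 1. It was 60.0 and 514 in SF at day 3, 4.19 and 66.5 in DF at day 3, and 45.8 and 353 in DF at day 7. Replicate 1 of SF at day 3 stood 3.47-fold (bta-miR-451) and 4.11-fold (bta-miR-486) above the mean of the other 2 libraries of its group, and replicate 2 of DF at day 7 stood 2.23-fold above its own for bta-miR-486 and had the highest bta-miR-451 of all. The 3 red cell miRNAs together made 0.629% of the reads in that SF library, against 0.187% and 0.119% in the other 2, and 0.870% in that DF library, against 0.492% and 0.275%. For miR-126, the ratios of SF day 3 replicate 1 and DF day 7 replicate 2 to the mean of the other 2 were 0.93 and 1.00 for bta-miR-126-3p, and 1.28 and 0.99 for bta-miR-126-5p. The leukocyte markers differed between these libraries: their summed level was 1.32-fold the mean of the other 2 in SF day 3 replicate 1 and 2.71-fold in DF day 7 replicate 2, where bta-miR-150, a lymphocyte miRNA, was at 5.92-fold and bta-miR-142-5p, made in blood-forming cells, at 4.18-fold.

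bta-miR-451 and bta-miR-486 moved together from library to library. Over the 12 libraries their log2 normalized counts (with 1 added) correlated at Pearson's r = 0.90 (permutation p = 8e-05, 0.0008 after Benjamini-Hochberg adjustment over the 10 pairs of the 5 miRNAs) and Spearman's rho = 0.86 (permutation p = 0.00059, adjusted 0.0059). Without the libraries farthest from the median of bta-miR-451, SF day 3 replicate 2 and DF day 7 replicate 2, r was 0.87, and for the deviations from the 4 group means it was 0.83. The 12 libraries form 4 groups, so the pooled r also carries the differences between groups.

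**Figure D2:**
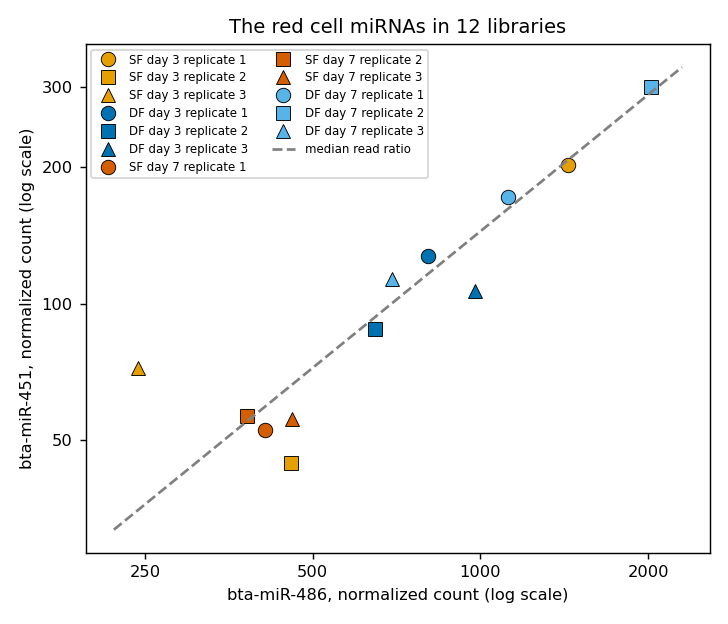
Normalized counts of bta-miR-451 against bta-miR-486, with both axes on a log scale, in the 12 libraries, coloured by group and shaped by replicate, with the dashed line at the median ratio of reads (0.144). The libraries lie along the line (r = 0.90), and SF day 3 replicate 3 lies above it, at a ratio of 0.296.

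Within a library the ratio of bta-miR-451 to bta-miR-486 reads needs no normalization. It was 0.141, 0.0973 and 0.296 in SF and 0.158, 0.136 and 0.109 in DF at day 3, and 0.128, 0.149 and 0.121 in SF and 0.153, 0.148 and 0.163 in DF at day 7. The groups overlapped in each of the 4 comparisons. The log2 ratio differed between SF and DF by 0.27 at day 3 and by -0.22 at day 7, with exact two-sided permutation p = 0.8 and 0.2, where 3 libraries against 3 can give no p below 0.1. The SD of the log2 ratio over the 12 libraries was 0.39.

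At day 7 of the estrous cycle, both abundant red cell miRNAs were decreased in granulosa cells of SF compared with DF. bta-miR-451 was 3.38-fold lower in SF (log2 fold change -1.76, SE 0.37, edgeR adjusted p = 0.00547) and bta-miR-486 was 2.95-fold lower (log2 fold change -1.56, SE 0.37, edgeR adjusted p = 0.0089), and every SF library was below every DF library for each. The median log2 fold change of the 350 miRNAs tested was -0.05. These were 2 of the 4 miRNAs of the set that could be tested, where 33.4% of all miRNAs tested were called (15.1% increased and 18.3% decreased in SF) and 45.7% had libraries of the 2 groups that did not overlap. A large share of all miRNAs thus differed between SF and DF at day 7, and the count of 2 of 4 is read beside that share. Without DF day 7 replicate 2 the log2 fold changes were -1.30 and -1.05, and both miRNAs were still called. With the replicate number as a block they were -1.64 and -1.41 and both were called.

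bta-miR-126-3p and bta-miR-126-5p were not called in that comparison. bta-miR-126-3p was counted at 36.5, 108 and 40.9 in SF and at 71.8, 78.2 and 84.6 in DF at day 7, with a log2 fold change of -0.25 (SE 0.42, edgeR adjusted p = 0.649). bta-miR-126-5p was counted at 54.4, 112 and 61.4 in SF and at 58.2, 66.5 and 75.6 in DF, with a log2 fold change of 0.27 (SE 0.34, edgeR adjusted p = 0.559). In both cases 1 SF library, replicate 2, was above all DF libraries. Without it, the log2 fold change was -0.95 for bta-miR-126-3p (edgeR adjusted p = 0.039, under the fold threshold) and -0.14 for bta-miR-126-5p. That library was also high in leukocyte markers, with a summed level 2.57-fold the mean of the other 2 SF libraries. Single miRNAs of other lists were high there too, among them bta-miR-145, a smooth muscle miRNA, at 1.95-fold. From the list of shared red cell miRNAs, bta-miR-182 and bta-miR-183 of the miR-183 cluster were at 7.05-fold and 8.66-fold. Their whole lists deviated less, with sums at 1.41-fold (vessel wall and stroma) and 0.96-fold (shared red cell miRNAs). For the narrower red cell markers that library was at 1.05-fold for bta-miR-451 and 0.88-fold for bta-miR-486. The part of these cells in the miR-126 values was not tested.

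**Figure D3:**
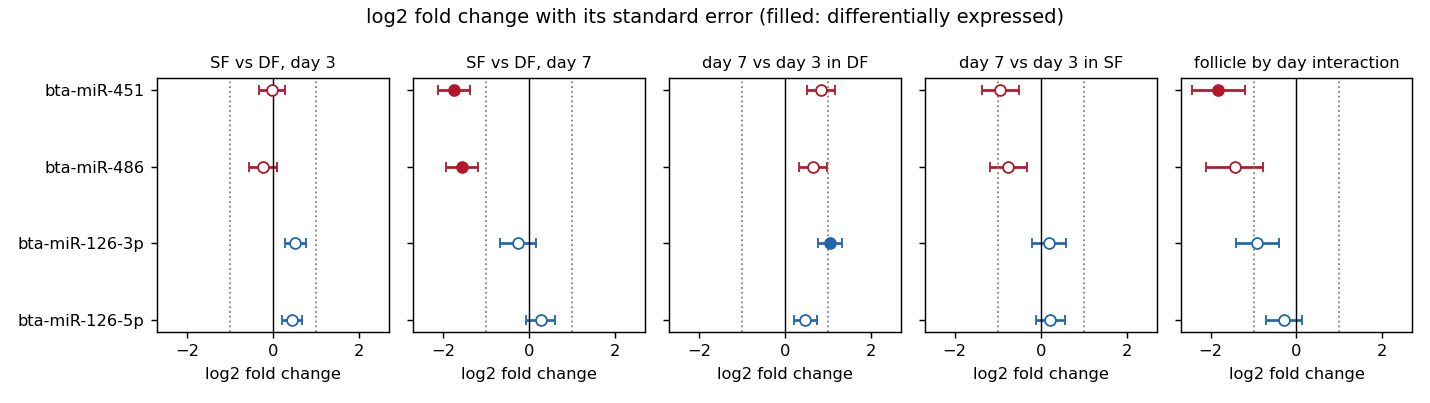
Log2 fold changes from edgeR with bars of ± 1 SE for bta-miR-451, bta-miR-486 and both miR-126 arms in the 4 comparisons and the interaction of follicle and day, with dotted lines at the threshold of 1 in either direction and filled symbols for called miRNAs. Calls are seen for bta-miR-451 and bta-miR-486 in SF against DF at day 7, for bta-miR-126-3p between the days in DF, and for bta-miR-451 in the interaction.

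At day 3 of the estrous cycle, 0 of the 5 miRNAs were called between SF and DF, where 5.67% of the 335 miRNAs tested were called (3.88% increased and 1.79% decreased in SF). At an unadjusted p under 0.05 edgeR gave 1 of 5, bta-miR-126-3p, and DESeq2 gave 0 at either threshold. By edgeR p, bta-miR-126-3p ranked 81 among the 335 miRNAs tested, so many other miRNAs also had an unadjusted p under 0.05. bta-miR-451 had a log2 fold change of -0.04 (SE 0.31, edgeR adjusted p = 0.96) and bta-miR-486 of -0.25 (SE 0.32, edgeR adjusted p = 0.716), and the libraries of SF and DF overlapped for both. These values rested on SF day 3 replicate 1. Without it, the log2 fold change of bta-miR-486 was -1.27 (edgeR adjusted p = 0.000623), which was a call, and that of bta-miR-451 was -0.93 (edgeR adjusted p = 0.026), just under the fold threshold.

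The miR-126 arms were likewise not called at day 3. bta-miR-126-3p was counted at 52.6, 59.2 and 53.8 in SF (55.2 ± 3.55) and at 48.1, 37.3 and 25.4 in DF (36.9 ± 11.3), and every SF library was above every DF library. Of all miRNAs tested, 27.8% had libraries that did not overlap in this comparison. Its log2 fold change was 0.51 (SE 0.25, edgeR adjusted p = 0.192). bta-miR-126-5p was counted at 76.7, 71.4 and 48.9 in SF (65.6 ± 14.8) and at 53.4, 51.4 and 36.2 in DF (47.0 ± 9.4), with a log2 fold change of 0.43 (SE 0.23, edgeR adjusted p = 0.25) and overlapping groups. Both arms thus had positive values that did not pass the test.

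Between day 3 and day 7, the endothelial miRNA bta-miR-126-3p was increased in DF. Its mean was 36.9 ± 11.3 at day 3 and 78.2 ± 6.38 at day 7 (n = 3 each), 2.07-fold higher in the fit (log2 fold change 1.05, SE 0.29, edgeR adjusted p = 0.01), and all libraries of day 7 were above those of day 3. It was the 1 member called of the 5 tested, where 40.3% of the 360 miRNAs tested were called (24.4% increased and 15.8% decreased at day 7) and 50% did not overlap. The call lay close to the fold threshold: the log2 fold change was 0.80 without DF day 3 replicate 3, 1.00 (just under the threshold) without DF day 7 replicate 3, and 0.92 with scaling by library size alone. bta-miR-126-5p, from the other arm, also had all libraries of day 7 above those of day 3 (means 47.0 ± 9.4 and 66.8 ± 8.72), but its log2 fold change of 0.48 did not pass the test (SE 0.27, edgeR adjusted p = 0.175).

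The red cell miRNAs had positive but uncalled differences between the days in DF. The log2 fold change was 0.84 for bta-miR-451 (SE 0.33, edgeR adjusted p = 0.0569) and 0.65 for bta-miR-486 (SE 0.33, edgeR adjusted p = 0.126), and the libraries of the 2 days overlapped for both. Without DF day 7 replicate 3, the library of that group with the lowest levels of both, bta-miR-451 was called, with a log2 fold change of 1.12 (edgeR adjusted p = 0.00537). Without DF day 7 replicate 2, the library with the highest levels, the values were 0.39 for bta-miR-451 (edgeR adjusted p = 0.239) and 0.14 for bta-miR-486 (edgeR adjusted p = 0.655).

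In SF, 0 of the 5 miRNAs were called between day 7 and day 3, where 0.593% of the 337 miRNAs tested were called (0.297% increased and 0.297% decreased at day 7). At an unadjusted p under 0.05 edgeR gave 1 of 5, bta-miR-451, and DESeq2 gave 0 at either threshold. By edgeR p, bta-miR-451 ranked 32 among the 337 miRNAs tested, so other miRNAs also had an unadjusted p under 0.05. The log2 fold change was -0.94 for bta-miR-451 (SE 0.42, edgeR adjusted p = 0.447), -0.75 for bta-miR-486 (SE 0.44, edgeR adjusted p = 0.591), 0.19 for bta-miR-126-3p (SE 0.39, edgeR adjusted p = 0.937) and 0.23 for bta-miR-126-5p (SE 0.33, edgeR adjusted p = 0.928). The groups overlapped for each of these, while 13.9% of all miRNAs tested had groups that did not. Without SF day 3 replicate 1 the value was -0.10 for bta-miR-451 and 0.22 for bta-miR-486.

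Whether the difference between SF and DF itself changed with the day was tested as an interaction over all 12 libraries. bta-miR-451 was called, with SF minus DF lower at day 7 than at day 3 by 1.82 on the log2 scale (log2 value -1.82, SE 0.61, edgeR adjusted p = 0.0363), and it was the 1 member of 5 called, where 26.5% of the 378 miRNAs tested were called (12.2% positive and 14.3% negative). bta-miR-486 had a log2 value of -1.44 (SE 0.66, edgeR adjusted p = 0.142), bta-miR-126-3p of -0.91 (SE 0.51, edgeR adjusted p = 0.229) and bta-miR-126-5p of -0.29 (SE 0.42, edgeR adjusted p = 0.667). The call of bta-miR-451 rested on the libraries that stood above their groups. It was -0.93 without SF day 3 replicate 1 (edgeR adjusted p = 0.208), -1.36 without DF day 7 replicate 2 (edgeR adjusted p = 0.167) and -0.46 without both (edgeR adjusted p = 0.459). The value of bta-miR-486 also turned on single libraries: it was -0.41 without SF day 3 replicate 1 (edgeR adjusted p = 0.641), and it was called without SF day 3 replicate 3 (-1.84, edgeR adjusted p = 0.027), without DF day 7 replicate 3 (-1.73, edgeR adjusted p = 0.0558) and with the replicate number as a block (-1.16, edgeR adjusted p = 0.0663). Without SF day 7 replicate 2 the interaction of bta-miR-126-3p was -1.57 and was called (edgeR adjusted p = 0.00564).

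bta-miR-144, which shares its transcript with bta-miR-451, was close to the limit of detection. It had 1, 1 and 0 reads in SF and 2, 3 and 2 reads in DF at day 3, no read in the 3 SF libraries at day 7, and 2, 0 and 0 reads in DF at day 7. The 0 of 908489 reads in SF at day 7 allow a share of up to 0.00033%. The rate in SF was 0.398 times that in DF at day 3 (95% interval 0.0404 to 2.09, counting error only), and in DF the rate at day 7 was 0.355 times that at day 3 (0.036 to 1.86). Both intervals include equal rates, so no difference was detectable at this depth. The read ratio of bta-miR-451 to bta-miR-144 cannot be read closely for the same reason. With 0.5 reads added to each, its log2 value differed between the groups of the 4 comparisons by -0.75 to 1.97, with exact permutation p of 0.1 to 1.

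The arms of the miR-126 hairpin were read at similar levels, and their ratio was compared within libraries, where the scaling drops out. The ratio of bta-miR-126-3p to bta-miR-126-5p reads was 0.686, 0.83 and 1.10 in SF and 0.901, 0.726 and 0.703 in DF at day 3. At day 7 it was 0.672, 0.964 and 0.667 in SF and 1.24, 1.18 and 1.12 in DF. The 3p arm had more reads than the 5p arm in all 3 DF libraries at day 7 and in 1 of the other 9 libraries. The log2 ratio in DF at day 7 was higher by 0.60 than in DF at day 3, and SF minus DF at day 7 was -0.63. Neither pair of groups overlapped, and the exact two-sided permutation p was 0.1 for each, the smallest this design allows, over 16 ratio comparisons in all. For SF against DF at day 3 and for day 7 against day 3 in SF the differences were 0.15 and -0.18 (exact permutation p = 0.7 and 0.5).

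**Figure D4:**
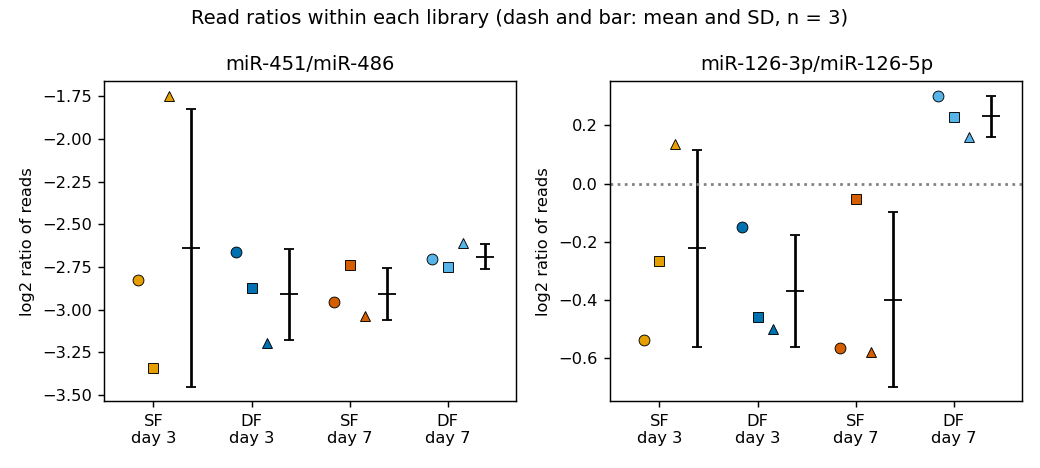
Log2 ratios of reads within each of the 12 libraries (0.5 reads added) for bta-miR-451 to bta-miR-486 and for bta-miR-126-3p to bta-miR-126-5p, with a symbol for each replicate, a dash and bar for the group mean ± SD (n = 3) and a dotted line at equal reads of both arms. As plain ratios, bta-miR-126-3p to bta-miR-126-5p lies between 1.12 and 1.24 in DF at day 7 and between 0.667 and 1.10 in the other groups, while bta-miR-451 to bta-miR-486 overlaps between all groups.

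Over the 12 libraries the arms of miR-126 correlated at r = 0.83 (permutation p = 0.00082, adjusted 0.0041) and rho = 0.71 (permutation p = 0.0126, adjusted 0.0632). Without DF day 3 replicate 3 and SF day 7 replicate 2, r was 0.56 (permutation p = 0.0995), so the pooled relation rested on those libraries. For the deviations from the 4 group means of all 12 libraries, r was 0.87. Between the endothelial and red cell miRNAs no relation passed the test. The r was 0.19 between bta-miR-451 and bta-miR-126-3p (permutation p = 0.549, adjusted 0.812, rho 0.24 with p = 0.458) and 0.049 between bta-miR-486 and bta-miR-126-3p (permutation p = 0.882, adjusted 0.887, rho 0.014 with p = 0.974). The ratio of bta-miR-451 to bta-miR-126-3p reads ranged from 0.523 to 4.19 over the libraries. Its log2 value differed between SF and DF by -0.91 at day 3 and by -1.19 at day 7, with exact permutation p = 0.3 for each and overlapping groups. bta-miR-451 and bta-miR-486 were highest in DF day 7 replicate 2, and both miR-126 arms were highest in SF day 7 replicate 2.

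Among the 186 miRNAs with a mean of at least 10 reads, those most like each miRNA over the 12 libraries were ranked by Pearson's r of log2 normalized counts, as a description. For bta-miR-451 they were bta-miR-486 (r = 0.90), bta-miR-184 (0.72) and bta-miR-34a (0.69), and for bta-miR-486 they were bta-miR-451 (0.90), bta-miR-34a (0.82) and bta-miR-185 (0.77). For bta-miR-126-3p they were bta-miR-145 (0.85), bta-miR-126-5p (0.83) and bta-miR-760-3p (0.79). For bta-miR-126-5p they were bta-miR-126-3p (0.83), bta-miR-532 (0.59) and bta-miR-449a (0.58). The partner in the same cell type or hairpin was first or second in each of the 4 rankings. The libraries share groups, and part of each r comes from differences between them.

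Other miRNAs of blood and vessels were set beside the 5. This list and those that follow were chosen with earlier results of these data known. Their counts beside the shares of all miRNAs are therefore a description and test no excess. Of 10 further miRNAs that are abundant in red cells but shared with many tissues, 9 were tested at day 3 and 10 in the other comparisons. Of these, bta-miR-182, bta-miR-183 and bta-miR-96 share 1 cluster, so the counts are not of independent miRNAs. SF against DF at day 3 had 0 increased and 2 decreased, beside 5.67% of all called (bta-miR-183, log2 fold change -1.45, and bta-miR-182, -1.16), with a median of -0.76 against -0.04 over all miRNAs tested. At day 7, 3 were increased in SF (bta-miR-92a, log2 fold change 1.34, bta-miR-25, 1.13, and bta-miR-16b, 1.08) and 1 was decreased (bta-miR-185, -1.36), with a median of -0.40, and these 4 of 10 stand beside the 33.4% of all miRNAs called. The summed level of the list was 13809 to 17089 in SF and 6902 to 8456 in DF at day 7, and it was 13126 to 14627 in SF and 9870 to 11240 in DF at day 3. These sums are mostly bta-miR-92a, bta-miR-25 and bta-miR-16b, which made 91.8% to 96.7% of the sum in SF and 81.9% to 86.6% in DF at day 7. The other 7 summed to 483 to 1215 in SF (median 558) and 1137 to 1296 in DF (median 1170) at day 7. The groups overlapped there through SF replicate 2, where bta-miR-182 was at 589 and bta-miR-183 at 249. At day 3 the other 7 summed to 342 to 447 in SF and 614 to 729 in DF, without overlap. The order of the full sum at day 7, opposite to that of bta-miR-451 and bta-miR-486, is therefore that of the 3 abundant members. Between the days, 5 were increased and 1 was decreased in DF (median 0.84, with 40.3% of all called), 0 were called in SF (0.593% of all, median 0.31, or 0.21 with bta-miR-363 at the bound that 3 reads give), and in the interaction 1 was called positive and 1 negative (26.5% of all called). bta-miR-363, which had no read in either group at day 3, had 1, 4 and 0 reads in DF at day 7 (SE of the log2 fold change 1.87, edgeR adjusted p = 0.0976). With a floor of 3 reads over DF at day 3, the 5 reads at day 7 gave a ratio of 2.31. This ratio takes the 5 reads as exact and rests mostly on 1 library.

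Leukocyte and platelet miRNAs moved in the direction of the red cell pair at day 7. This list too was chosen with earlier results known, and its bta-miR-142-3p and bta-miR-142-5p are arms of 1 hairpin. Its counts are therefore a description. Of 6 listed, 5 were decreased in SF compared with DF at day 7 and none increased, beside 18.3% of all miRNAs tested that were decreased, with a median log2 fold change of -3.16. In DF all 6 were increased at day 7 over day 3, beside 24.4% of all (median 4.92, or 4.07 with bta-miR-142-3p, which had no read in either group at day 3 and 10 in DF at day 7, at its bound). The largest values at day 7 were those of bta-miR-150 (log2 fold change -3.74), bta-miR-142-5p (-3.40), bta-miR-155 (-3.30), an activation-linked miRNA of lymphocytes and macrophages, and bta-miR-142-3p (-3.01). The summed level was 280.03 to 433 in SF and 226 to 258 in DF at day 3, and 456 to 1570 in SF and 3977 to 15245 in DF at day 7. At day 3 the list had 1 of 5 increased in SF (bta-miR-155, 1.96, with 3.88% of all increased), and between the days in SF 1 of 5 increased at day 7 (bta-miR-155, 1.89, with 0.297% of all increased). In the interaction 4 of 6 were called, all negative, beside 14.3% of all. The called leukocyte miRNAs at day 7 had log2 fold changes of -3.74 to -1.96, beside -1.76 for bta-miR-451 and -1.56 for bta-miR-486, and the part of blood as a whole in these values was not tested.

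Vessel-linked miRNAs other than miR-126 were divided at day 7, with several higher in DF and others not. Members of 1 cluster or hairpin are counted apart here, so the counts below are not of independent miRNAs. This holds for bta-miR-221 with bta-miR-222, and for bta-miR-23a with bta-miR-27a-3p and bta-miR-24-3p. It also holds for bta-miR-143 with bta-miR-145 and for the arms of bta-miR-199a with bta-miR-214. Of the endothelial list, bta-miR-17-5p, bta-miR-18a, bta-miR-19a, bta-miR-19b and bta-miR-20a likewise share 1 cluster. Of 11 miRNAs of endothelium that many tissues share, 5 were decreased in SF against DF at day 7, beside 18.3% of all miRNAs tested (bta-miR-221, log2 fold change -3.80, bta-miR-222, -3.23, bta-miR-23a, -3.12, bta-miR-27a-3p, -2.43, and bta-miR-24-3p, -1.94), 5 were increased in DF from day 3 to day 7, beside 24.4% of all, and 2 were increased in SF at day 3, beside 3.88% of all (bta-miR-222, 2.53, and bta-miR-221, 1.62). The medians of the list were -0.48, 0.16 and 0.21. The other 6 were not called at day 7, and 2 of them, named after their values were seen, had all SF libraries above all DF libraries: bta-miR-130a at 421 to 550 against 221 to 298 (log2 fold change 0.97) and bta-miR-17-5p at 104 to 117 against 48.2 to 81.0 (0.71). Of 5 miRNAs of vessel wall and stroma, 4 were decreased in SF against DF at day 7 (median -2.07, 18.3% of all decreased), all 5 were increased in DF at day 7 over day 3 (median 2.48, 24.4% of all increased), and 1, bta-miR-214 (1.03), was increased in SF at day 3. Between the days in SF, 0 of the 11 and 0 of the 5 were called (0.593% of all), and in the interaction 5 of 11 and 5 of 5, all negative (14.3% of all were called with a negative value). The summed level of the vessel wall list was 2448 to 4194 in DF at day 3 and 8525 to 16576 in DF at day 7, and that of the endothelial list was 980.2 to 1180 and 5139 to 8635. In DF at day 7 the 5 called members made 89.5% to 94.9% of the endothelial sum, and the other 6 summed to 442 to 537 there and to 694 to 916 in SF at day 7, so the sum describes those 5 rather than the list. In SF the endothelial list summed to 1291 to 1368 at day 3 and to 1282 to 1917 at day 7, and the vessel wall list to 4116 to 5378 and to 3222 to 5326. bta-miR-126-3p, the member called between the days in DF, had the same direction as the called miRNAs of both lists, while both arms of miR-126 overlapped between SF and DF at day 7.

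**Figure D5:**
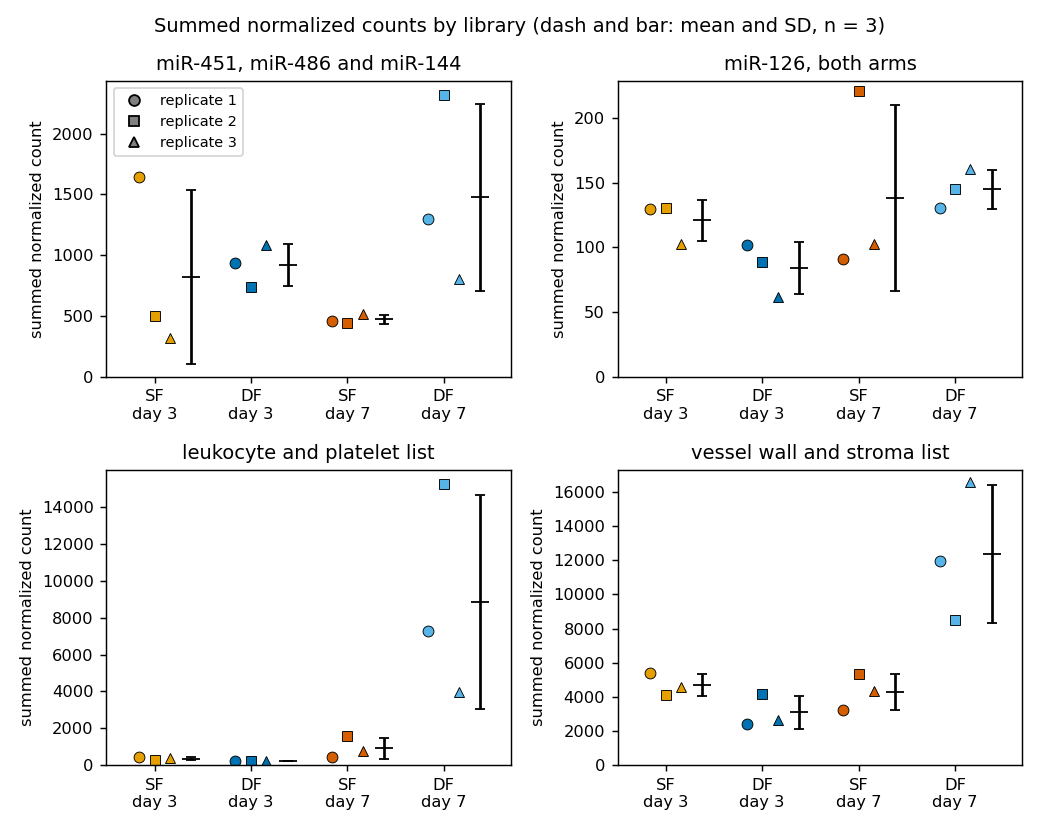
Summed normalized counts of the 3 red cell miRNAs, of both miR-126 arms and of the lists of leukocyte and platelet miRNAs and of vessel wall and stroma miRNAs in each of the 12 libraries, with symbols for replicates and a dash and bar for the group mean ± SD (n = 3). Leukocyte and platelet miRNAs sum to 3977 to 15245 in DF at day 7 and to at most 1570 in the other groups, and the vessel wall list to 8525 to 16576 there and to at most 5378 elsewhere.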

How the data were processed

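Small RNA from 12 granulosa samples was sequenced on an Illumina instrument after TruSeq small RNA preparation. The authors called bases with CASAVA 1.8.0, trimmed with cutadapt, aligned to the bovine genome (UMD 3.1) and counted reads on miRBase entries with miRDeep2, and they deposited raw read counts per mature and precursor pair (906 pairs, 755 mature names) without normalization. Reads matching several precursors counted at each, so the entry with the highest total stood for a name. No column of per-sample values was left unmapped. Groups and replicate numbers came from the labels.

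Members and lists were chosen with earlier results of these data known. miRNAs with at least 1 read in 2 of the 3 replicates of a group were tested on raw counts with edgeR 4.0.16 in R 4.3.3 (two-sided quasi-likelihood F test, median-of-ratios factors, prior count 0.125), Benjamini-Hochberg adjusted, using only the groups compared, or all 12 libraries for the interaction. The SE is the log2 fold change divided by the square root of F. Ratios within libraries (0.5 reads added) used exact permutation in scipy 1.17.1, and correlations used 100000 permutations. Intervals and floors cover counting error only, since reads carry no molecular identifiers. The calling step was run on simulated counts for the comparisons of 2 groups, but not the interaction, ratios or correlations. The simulated dispersion was lower than the 0.107 estimated for SF against DF at day 7. It was also lower than the 0.0729 and 0.0644 estimated between the days in DF and in SF. The simulation therefore does not measure accuracy in these comparisons. No 2 libraries were identical.

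The named miRNAs are the 5 members, the 3 miRNAs most alike to each member with a mean of at least 10 reads, and up to 4 called miRNAs of each list per comparison with the largest change. Of the endothelial list at day 7, bta-miR-24-3p, bta-miR-130a and bta-miR-17-5p fall outside this rule and were named after their values were seen. Same-numbered libraries of SF and DF at day 7 deviated together (r 0.128 to 0.181), and differently numbered ones had r of -0.137 to 0.0234. Between the days in DF, where heifers differed, differently numbered libraries reached r = 0.134. A pairing by number is therefore only a hint, and the labels tie no number to an animal. The main tests did not pair, and the replicate block was an alternative. In the other comparisons some or all same-numbered pairs had r under 0.1. Alternatives were DESeq2 1.42.0, TMM factors or none, no filter or a filter of 10 reads in 3 libraries, all 12 libraries in one fit, summed or separate entries, the replicate block, a 5% false discovery rate, prior count 2, 1 read added to ratios, thinning to 160418 reads, and leaving out each library.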

Additional observations from a re-analysis of the deposited data

Results flagged for a closer look

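The difference between SF and DF in bta-miR-451 was not the same on the 2 days: the interaction of follicle and day, tested over all 12 libraries with edgeR, was -1.82 on the log2 scale (SE 0.61, edgeR adjusted p = 0.0363). SF against DF gave a log2 fold change of -0.04 at day 3 and -1.76 at day 7. Leaving out SF day 3 replicate 1 gave -0.93 and leaving out DF day 7 replicate 2 gave -1.36, and neither was called.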

How the results depend on the processing

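The calls of bta-miR-451 and bta-miR-486 in SF against DF at day 7 held in every alternative run, leave-one-out included (2 members called throughout), and 0 members were called between the days in SF throughout. With the replicate number as a block, 2 members were called in the interaction (bta-miR-486 joined, log2 -1.16, adjusted p = 0.0663), and no other call of a member changed. No filter and all entries as separate rows also gave 2 in the interaction. Leaving out single libraries gave 0 to 1 at day 3, 0 to 1 between the days in DF and 0 to 2 in the interaction, and 0 without both SF day 3 replicate 1 and DF day 7 replicate 2, a pair chosen after seeing the data. Library size alone and all entries each gave 0 between the days in DF. Signs turned for bta-miR-451 at day 3 when thinned (0.050), in the fit of all 12 libraries (0.0095) and on leaving out libraries (-0.93 to 0.26), and on leaving out libraries for bta-miR-486 at day 3 (-1.27 to 0.16) and in SF (-1.16 to 0.22), bta-miR-126-3p at day 7 (-0.95 to 0.038) and in SF (-0.53 to 0.44), and bta-miR-126-5p at day 7 (-0.14 to 0.48) and in SF (-0.21 to 0.40). The interaction turned for bta-miR-486 without both libraries (0.12, against -1.84 to -0.41 without single libraries) and for bta-miR-144 with a prior count of 2 (0.037) and on leaving out libraries (-2.23 to 1.13). Within-library log2 ratios turned on leaving out libraries for miR-451/miR-486 at day 3 (-0.17 to 0.62) and in SF (-0.62 to 0.17), miR-451/miR-144 in SF (-0.22 to 1.17), the miR-126 arms at day 3 (-0.033 to 0.30) and in SF (-0.35 to 0.0029), and miR-451/miR-126-3p in DF (-0.72 to 0.032) and in SF (-1.17 to 0.0046). The cause was not tested. Over all miRNAs tested, the 19 calls at day 3 (5.67% of 335) became 11 with DESeq2 (3.28%) and 8 in the fit of all 12 libraries (2.39%). They became 10 without SF day 3 replicate 1 (3.09% of 324). With at least 10 reads in 3 libraries there were 12, a higher share of fewer miRNAs tested (6.42% of 187). The 145 between the days in DF (40.3% of 360 tested) became 92 with that filter, again a higher share of fewer miRNAs (48.2% of 191). The 2 in SF (0.593% of 337 tested) became 5 with DESeq2, 7 with the replicate block and 1 in the fit of all 12 libraries. They became 12 with no filter (2.8% of 428), 10 with all entries (2.22% of 450) and 8 when thinned (2.62% of 305). There were 0 with at least 10 reads in 3 libraries and 0 to 20 on leaving out libraries. The members' reads, 0 to 3 for bta-miR-144, limit what can be detected.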
